A study of Arabidopsis thaliana with 6 samples.

Results

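The WRKY family was taken as the rows of the deposited Ct matrix whose transcription factor (TF) family is given as WRKY, which were 72 of 1880 rows. Each row is 1 TF gene measured by quantitative RT-PCR with SYBR Green. The value is the Ct, the PCR cycle at which the product passes a fixed threshold, and each cycle earlier stands for 2-fold more transcript. Tissue of the tanmei mutant (allele tan1-2, non-embryogenic in culture) and of the highly embryogenic wild-type accession Col-0 was measured at 0, 5 and 10 d. The 0 d samples were freshly isolated explants, immature zygotic embryos at the late cotyledonary stage, excised 10 to 12 days after pollination. The 5 d and 10 d samples were the same kind of explant after culture on solid medium with 5 µM of the synthetic auxin 2,4-D. In Col-0 these are the early and the advanced stage of somatic embryogenesis (SE). TANMEI encodes a WD-repeat protein needed for embryo development. Each of the 6 groups is a single deposited column, the authors' mean over 3 replicates. No spread over replicates can be given, no difference was tested, and a row is called higher or lower at 2-fold.

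WRKY proteins are a plant family of TFs named for a conserved heptapeptide in their DNA-binding domain, which carries a zinc finger and binds the W-box, a short promoter element common in defence genes. Many members respond to pathogens, salicylic acid and wounding, and others act in leaf senescence, phosphate supply, abscisic acid (ABA) signalling, seed coat, endosperm and zygote polarity. They are divided into group I with a pair of WRKY domains, group II with a single domain and subgroups IIa to IIe, and group III with a different zinc finger.

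The matrix consists of 5 blocks of equal length, and all WRKY labels lie in the fifth. Most WRKY codes that could be checked did not sit on the rows that matched their profiles in the study's supplementary expression table. Whether the codes of the matrix or those of that table are displaced was not tested. The rows were put in a plate order made of 4 interleaved runs, in which the WRKY labels occupy places 238 to 309. The study's supplementary expression table gives profiles for 45 of the WRKY codes. Before matching, a constant per group was fitted over the block and removed, to put the Ct and the values of that table on the same scale. None of these 45 profiles was then found at its own row (0 of 45, within a root mean square of 1 cycle over the 6 groups), and 38 were found exactly 37 places further on. The next best displacement gave 3. The 7 codes of the ZF-HD family and the 7 codes of the ZIM family in that table, which follow WRKY in the plate order, were also found 37 places on, 7 of 7 each. The block ends with 37 rows labelled as possibly not expressed. Of these, 37 of 37 had a Ct in every group, against 298 of 339 (87.9%) among the other rows of the block. The rows so labelled had a median Ct of 23.7 at 5 d in Col-0. Whether their number is related to the displacement was not tested. The supplementary table holds genes chosen by the study as changed, and 7 of the 45 WRKY profiles were not found 37 places on, 2 of them at rows lacking a Ct in some group.

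The results are therefore given under both readings. By label, the family is the 72 rows at places 238 to 309. Read 37 places on, it is the 72 rows at places 275 to 346. Both readings share 35 rows, 37 rows are WRKY by label only, and 37 rows are WRKY 37 places on only, labelled ZF-HD (15), ZIM (15) and possibly not expressed (7). Under the displaced order the 37 rows that are WRKY by label only hold Trihelix (23), TUB (10), ULT (2) and VOZ (2) codes. In the following, a gene is named by its code in the displaced order, with the row's label in brackets, and "labelled" alone marks a row that is WRKY by label only. Of the 72 WRKY codes, 71 have a symbol in the RefSeq annotation, and the other is AT5G45270.

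**Figure D1:**
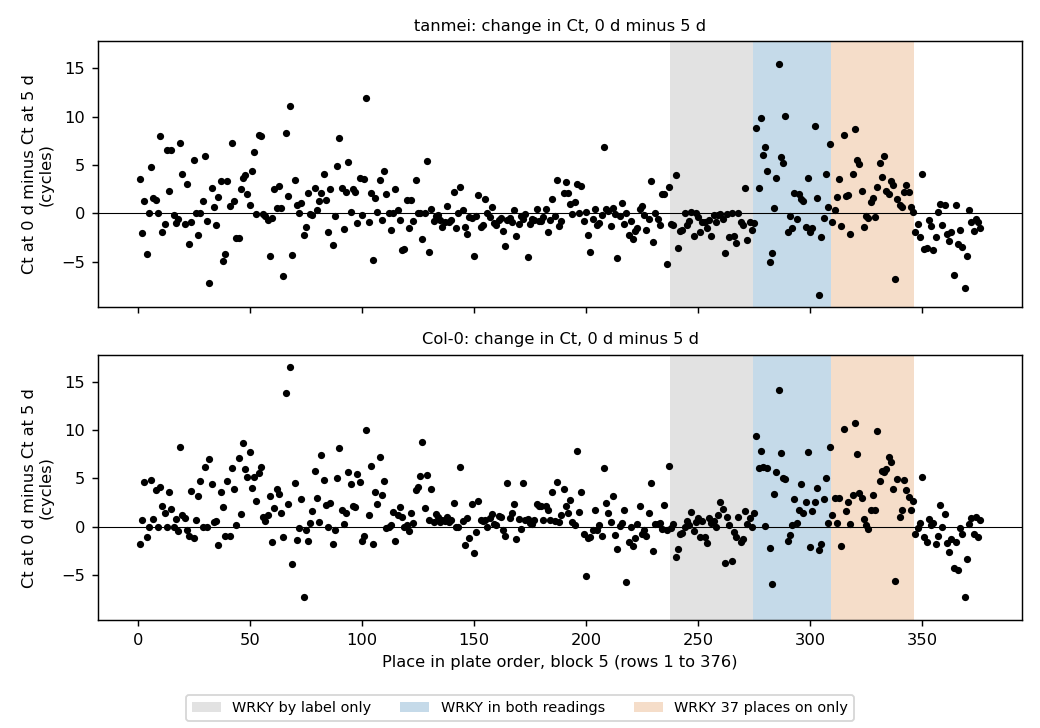
Ct at 0 d minus Ct at 5 d (cycles, no centring, higher means more transcript at 5 d) for each row of the block, by place in the plate order, in tanmei (upper) and Col-0 (lower). Grey marks the 37 rows that are WRKY by label only, blue the 35 rows that are WRKY in both readings and orange the 37 rows that are WRKY 37 places on only; points reach further upward across the blue and orange stretches than in the grey one, where the median Col-0 difference is 0.19 cycles.

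The embryo identity of the tissue was checked by deposited code. These codes lie in other blocks, for which the order was not examined here. FUS3, a seed maturation regulator, had Ct values of 18.3, 25.8 and 28.2 at 0, 5 and 10 d in tanmei, against 20.1, 20.0 and 21.1 in Col-0. ABI3, which mediates ABA response in seeds, had 19.3, 25.7 and 31.0 in tanmei, against 18.1, 18.8 and 19.6 in Col-0. LEC2, another regulator of embryo identity, had 26.9, 32.6 and 33.6 in tanmei, against 28.9, 27.7 and 27.2 in Col-0. These 3 genes were later in tanmei cultures than in tanmei explants and than in Col-0 cultures, while LEC1 stayed between 23.2 and 24.8 in all groups. Of the endosperm and seed coat markers, AGL62, PHE1 and TT16 had Ct values of 29.6 or later in every group, or none. The rows labelled WRKY10 and WRKY44, 2 further such markers, were at 23.4 or earlier in every group, and neither is WRKY in the displaced order. The part of these markers in the WRKY values was not tested.

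The measured levels separated the 3 sets of rows before any centring. The 35 rows that are WRKY in both readings had a median Ct of 28.8, 25.8 and 25.5 at 0, 5 and 10 d in tanmei, against 30.8, 27.0 and 25.9 in Col-0. The 37 rows that are WRKY 37 places on only had medians of 28.6, 25.2 and 24.3 in tanmei and 29.3, 25.7 and 25.7 in Col-0. Both sets were late in explants and earlier in both cultures, in each genotype. The 37 rows that are WRKY by label only had medians of 21.9, 23.2 and 23.1 in tanmei and 22.7, 22.9 and 22.6 in Col-0, so they were early throughout. Over the block, the medians were 26.0, 24.9 and 24.5 in tanmei and 27.0, 24.8 and 24.5 in Col-0. A lower level can mean fewer cells that hold the transcript or less transcript per cell, and these cannot be told apart in whole explants.

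**Figure D2:**
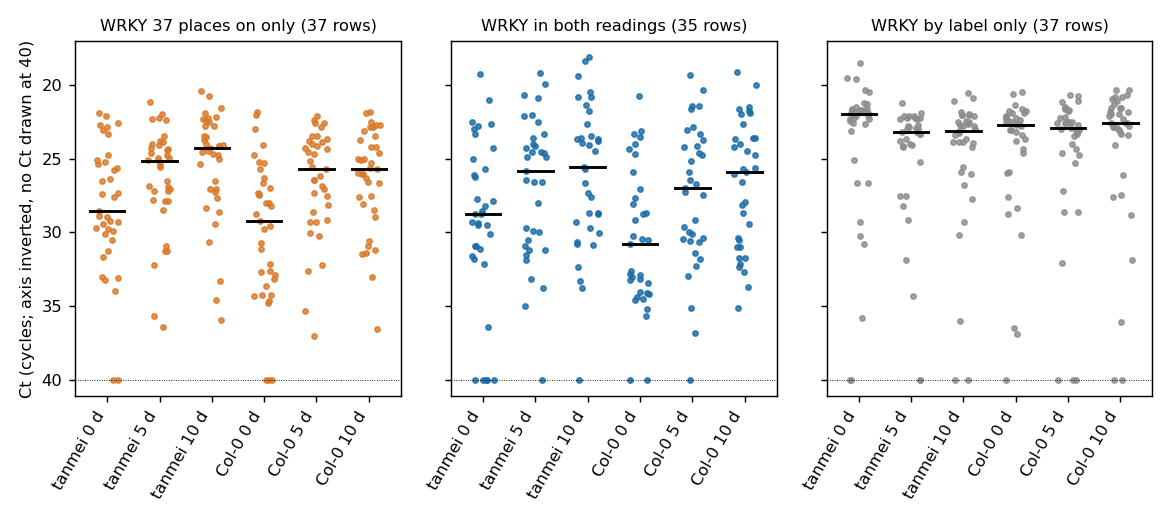
Ct (cycles, axis inverted so that higher level is up) in each of the 6 groups, 1 point per row, with the median as a bar and rows without a Ct drawn at 40, for the rows that are WRKY 37 places on only (37 rows), in both readings (35 rows) and by label only (37 rows). The first 2 sets have medians of 28.6 and 28.8 in tanmei explants and 29.3 and 30.8 in Col-0 explants, later than in any culture, and the third stays at 21.9 to 23.2 in all groups.

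A Ct was obtained in every group for 62 of the 72 rows by label and for 62 of 72 read 37 places on, against 1647 of all 1880 rows (87.6%). Read 37 places on, 16 rows in tanmei explants and 12 in Col-0 explants had a Ct below 25, and 34 and 29 had one in the 5 d cultures of tanmei and Col-0. In 4 of these rows no Ct was obtained in explants of either genotype, while all 4 cultures gave one. These were WRKY9 (labelled WRKY7), WRKY61 (labelled WRKY68), WRKY31 (labelled HB30) and WRKY68 (labelled MIF1). Over all 1880 rows, 23 had this pattern. The first 3 belong to group IIb. WRKY9 had Ct values of 24.5 and 27.3 at 5 and 10 d in tanmei and 25.9 and 26.6 in Col-0, which are high levels for a transcript that was not detected in explants. WRKY61 had 31.2 and 28.7 in tanmei and 30.7 and 30.5 in Col-0. WRKY31 had 31.3 and 28.6 in tanmei and 29.3 and 30.9 in Col-0. WRKY68 stayed late, at 36.4 and 35.9 in tanmei and 37.04 and 36.5 in Col-0.

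The 5 rows with the highest mean level over the groups, read 37 places on, were WRKY15 (labelled WRKY26), WRKY23 (labelled WRKY27), WRKY17 (labelled WRKY75), WRKY32 (labelled JAZ1) and WRKY33 (labelled WRKY24). WRKY15, a group IId member, was at 19.3, 19.9 and 18.1 at 0, 5 and 10 d in tanmei and 20.8, 20.4 and 20.0 in Col-0. WRKY33, a regulator of camalexin synthesis and resistance to necrotrophic fungi, was at 21.01, 22.5 and 20.8 in tanmei and 24.7, 23.1 and 21.5 in Col-0. The Ct of WRKY33 was 3.69 cycles earlier in tanmei explants than in Col-0 explants, and 0.66 cycles earlier at 10 d. The median of the block was itself 1.07 cycles earlier in tanmei explants and 0.03 cycles earlier at 10 d. Set against that median, the difference of WRKY33 in explants was 2.62. By label, the 5 highest were the rows labelled WRKY26 and WRKY27 again and 3 that are WRKY by label only, labelled WRKY71, WRKY39 and WRKY33. One labelled row, WRKY6, had no Ct in any group.

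For the comparisons between groups, each column was set against the median Ct of its block, with a missing Ct set to 40. This matters here because the block median moved more than the typical row. Between Col-0 explants and the 5 d culture the block median fell by 2.22 cycles, whereas the median row, among rows with a Ct in both groups, was 0.92 cycles earlier. Every change relative to the median row is thus larger by 1.30 than the change relative to the block median, given here as log2 values. The corresponding difference was 1.24 for Col-0 at 10 d, 1.26 for tanmei at 5 d and 1.45 for tanmei at 10 d, while it was 0.01 and 0.09 between 10 d and 5 d in Col-0 and tanmei and 0.07, 0.03 and 0.20 for tanmei against Col-0 at 0, 5 and 10 d. Counts are given relative to the block median first and relative to the median row second.

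In the 5 d culture of Col-0, by label, 16 rows were at least 2-fold higher and 44 at least 2-fold lower than in explants. Over all rows 28% were higher and 37.8% lower, and in the block 25.3% and 53.7%. Relative to the median row the labelled family gave 21 higher and 22 lower, against 32.9% and 27.3% of all rows. The 16 higher rows were all among the 35 rows that are WRKY in both readings (16 higher and 11 lower), while the 37 rows that are WRKY by label only gave 0 higher and 33 lower. The row labelled WRKY6, with no Ct in any group, is among the 33 and the 44 through the shift of the block median alone. With a Ct in both groups, 14 labelled rows were higher and 40 lower, and 0 and 30 of those that are WRKY by label only. Without centring, these 37 rows were earlier than in explants by a median of 0.19 cycles. Read 37 places on, 33 of 72 rows were higher and 19 lower, with a median change of 0.73. Relative to the median row the counts were 43 and 10 and the median change was 2.03, where the block had 36.4% higher and 25% lower. The direction of the family as a whole thus depended on the reading. By label it depended on the centring as well, since 28 rows were higher and 19 lower when each column was set against the median of all 1880 rows. That median was 27.5 in Col-0 explants and 27.1 at 5 d, and the block median 27.0 and 24.8, so these counts hold the shift of the block. Shares of all rows and of the block under that centring are not given.

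In the 10 d culture of Col-0 compared with explants, 15 labelled rows were higher and 47 lower (all rows 28.2% and 41.9%), and 21 and 18 relative to the median row (all rows 34.1% and 29%). In the block 26.1% and 54.8% passed. The displaced reading gave 30 and 23, and 45 and 9 relative to the median row. Few rows differed between 10 d and 5 d in Col-0. By label 13 were higher and 6 lower at 10 d, and read 37 places on 14 and 12, against 16.8% and 18.7% of all rows. Both comparisons with explants share the explant column, so they are not separate evidence.

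The same comparisons were made in tanmei. At 5 d, 18 labelled rows were higher and 47 lower than in explants (all rows 29.2% and 38.9%), and 22 and 23 relative to the median row (all rows 34.8% and 27.1%). In the block the shares were 25.5% and 55.6%. The displaced reading gave 34 higher and 21 lower, and 45 and 13 relative to the median row. At 10 d the labelled counts were 19 and 47 (all rows 30.8% and 36.9%), and those 37 places on 36 and 22, where 27.9% and 55.6% of the block passed. Relative to the median row these were 24 and 23 by label and 48 and 11 in the displaced reading (all rows 34.8% and 28.2%, block 39.6% and 24.7%). Between 10 d and 5 d in tanmei, 14 labelled rows were higher and 8 lower, and read 37 places on 23 were higher and 6 lower, against 19.2% and 14.9% of all rows.

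Among the single rows, the largest gains in Col-0 at 5 d with a Ct in both groups were those of WRKY47, WRKY45, WRKY71, WRKY35, WRKY57 and WRKY29. WRKY45 (labelled WRKY51), known for phosphate uptake and age-triggered senescence, had Ct values of 29.3, 22.1 and 20.8 at 0, 5 and 10 d in tanmei, against 32.8, 24.6 and 22.7 in Col-0. Its change at 5 d was 6.14 in tanmei and 6.01 in Col-0. WRKY71 (labelled WRKY47), a promoter of shoot branching, had 36.4, 26.6 and 23.8 in tanmei, against 34.6, 26.7 and 25.6 in Col-0. Its change of 8.83 in tanmei and 5.66 in Col-0 started from late Ct values, near the limit of detection. WRKY57 (labelled WRKY34), a group IIc member that links jasmonate and auxin in leaf senescence, had 27.8, 22.0 and 21.4 in tanmei, against 30.5, 22.8 and 22.0 in Col-0. All 3 were earlier in every culture than in either explant group.

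WRKY47 (labelled HB21), a group IIb member, had Ct values of 30.1, 22.0 and 21.6 in tanmei, against 32.7, 22.6 and 22.7 in Col-0, but its profile in the supplementary table was not found at this row. WRKY35 (labelled WRKY50), of group IIe, had 29.5, 25.8 and 27.6 in tanmei, against 34.2, 26.5 and 25.7 in Col-0. Its change of 5.48 in Col-0 at 5 d was larger than that of 2.59 in tanmei. Tanmei explants were already earlier by 4.71 cycles, or 3.64 relative to the block median. WRKY29 (labelled HB23), which acts in the response to bacterial flagellin downstream of a MAP kinase cascade, had 29.8, 24.3 and 24.6 in tanmei, against 34.6, 27.1 and 26.3 in Col-0. By label, the rule on the largest changes also named the rows labelled WRKY42 and WRKY19, which are WRKY14 and WRKY6 in the displaced order.

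The largest falls were fewer and mostly at late Ct values. WRKY24 (labelled JAZ10) had Ct values of 28.9, 35.7 and 33.3 in tanmei, against 29.7, 35.3 and 31.2 in Col-0. WRKY12 (labelled AT5G45270), which controls pith cell walls in the stem, had 31.6 in tanmei explants and no Ct in tanmei cultures, against 34.4, 36.9 and 31.8 in Col-0. WRKY56 (labelled WRKY28) had 28.8, 33.8 and 33.3 in tanmei, against 29.2, 31.4 and 29.5 in Col-0. In these 3 rows Col-0 was earlier at 10 d than at 5 d, by 4.11, 5.09 and 1.92 cycles. WRKY22 (labelled HB33), a partner of WRKY29 in the flagellin response, was at 23.1, 24.4 and 24.1 in tanmei, against 22.0, 24.0 and 25.3 in Col-0, and was the earliest of the rows with the largest falls. WRKY67 (labelled WRKY31) and WRKY43 (labelled WRKY8) completed the falls named in tanmei.

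Among the rows that are WRKY by label only, the largest falls with a Ct in both groups were those of the rows labelled WRKY35 and WRKY71. The row labelled WRKY35 had Ct values of 30.2, 34.3 and 30.2 in tanmei, against 28.3, 32.1 and 31.9 in Col-0. The row labelled WRKY71 had 18.5, 22.1 and 21.1 in tanmei, against 20.5, 22.7 and 20.3 in Col-0, and was the earliest labelled row in explants of both genotypes. Neither row is WRKY in the displaced order.

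**Figure D3:**
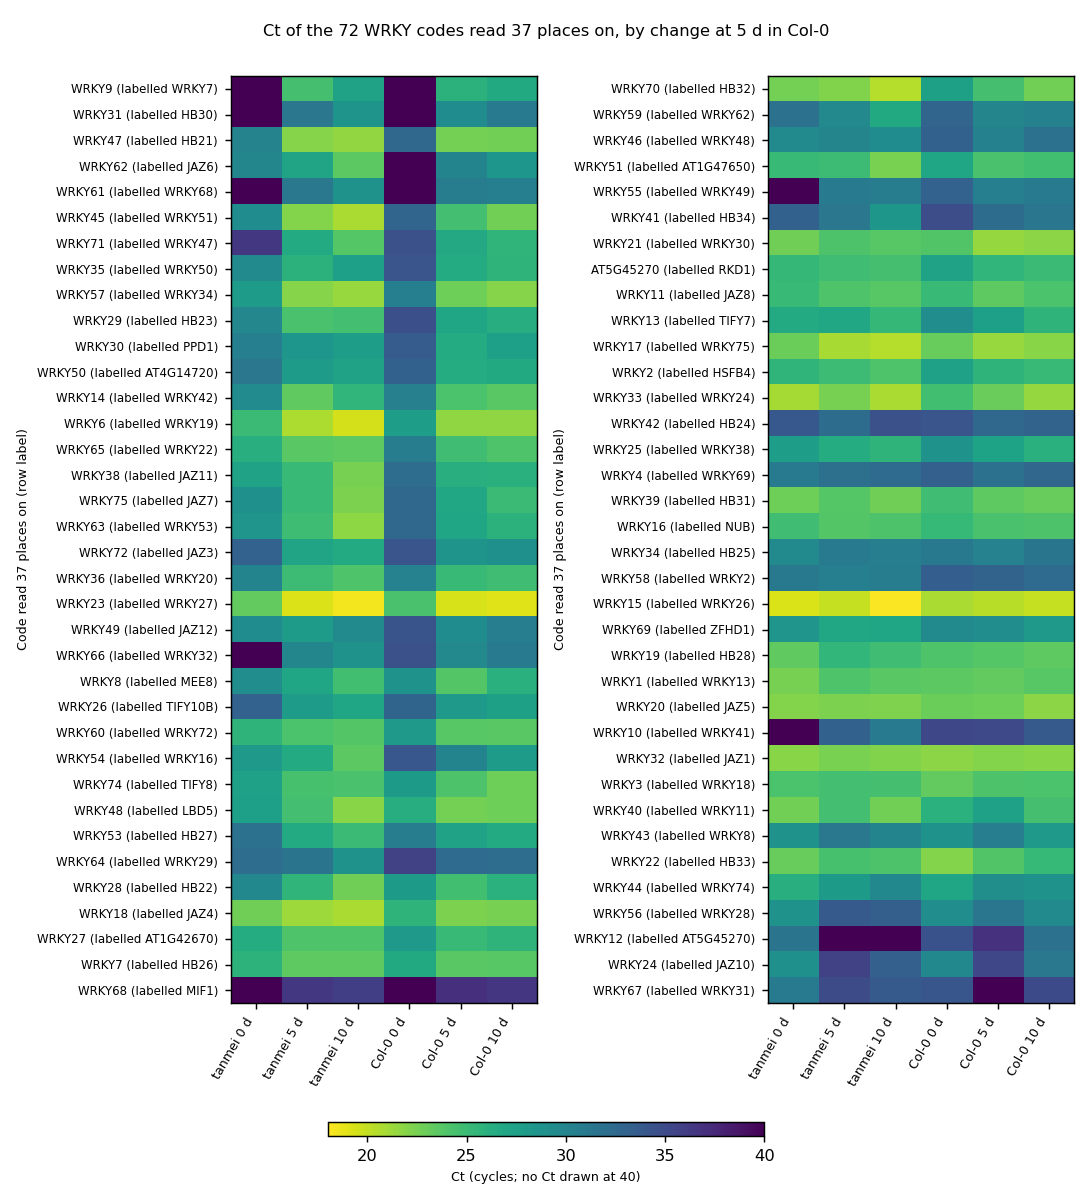
Ct (cycles, colour, yellow for high level and dark for low level or no Ct, drawn at 40) of the 72 WRKY codes read 37 places on in the 6 groups, tanmei left of Col-0, with the row label in brackets and rows ordered by the change at 5 d in Col-0. WRKY9, WRKY31, WRKY61 and WRKY68 have no Ct in explants of either genotype, and WRKY15 is at 20.8 or earlier in all groups.

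Grouped by role, read 37 places on, the salicylate and pathogen response list of 13 genes had 7 higher and 1 lower in Col-0 at 5 d and 4 higher and 3 lower in tanmei. Over all rows 28% were higher and 37.8% lower in Col-0, and 29.2% and 38.9% in tanmei. The share of the list that was higher in tanmei was thus near that of all rows. Relative to the median row the list gave 10 and 1 in Col-0 and 8 and 2 in tanmei. All rows then had 32.9% and 27.3% in Col-0 and 34.8% and 27.1% in tanmei. The list's median change in Col-0 was 1.09, where the median of all rows was -0.38. Over the 12 genes with a Ct in both groups, 6 were higher and 1 lower in Col-0, with a median of 0.90. WRKY62 and WRKY38 are negative regulators of basal defence. WRKY62 (labelled JAZ6) had Ct values of 29.9, 27.2 and 23.5 in tanmei, against none in explants, 30.1 and 28.5 in Col-0. WRKY38 (labelled JAZ11) had 27.3, 25.1 and 22.5 in tanmei, against 32.2, 26.2 and 26.0 in Col-0. Both were earlier in tanmei at all 3 times.

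WRKY70 and WRKY54 are paired regulators of salicylate signalling and of senescence. WRKY70 (labelled HB32) had Ct values of 22.6, 22.2 and 20.4 in tanmei, against 27.5, 24.5 and 22.7 in Col-0. WRKY54 (labelled WRKY16) had 28.2, 26.6 and 23.6 in tanmei, against 34.0, 30.1 and 27.9 in Col-0. WRKY54 was 3.60 higher in tanmei than in Col-0 at 5 d, while its change at 5 d within tanmei was 0.58. WRKY18, WRKY40 and WRKY60 are the closely related group IIa regulators of defence and ABA response. WRKY18 (labelled JAZ4) had 22.7, 21.2 and 20.8 in tanmei, against 25.7, 22.4 and 22.5 in Col-0. WRKY60 (labelled WRKY72) had 25.7, 24.3 and 23.9 in tanmei, against 28.1, 23.7 and 23.6 in Col-0. WRKY40 (labelled WRKY11) went the other way, at 22.7, 24.5 and 22.7 in tanmei, against 25.9, 27.4 and 24.5 in Col-0, and was latest at 5 d in both genotypes. WRKY50 (labelled AT4G14720), which acts between salicylate and jasmonate signalling, had 31.2, 27.9 and 27.3 in tanmei, against 33.2, 26.4 and 26.6 in Col-0.

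The senescence list of 8 genes had 6 higher and 1 lower in Col-0 at 5 d and 5 higher and 1 lower in tanmei, and relative to the median row 7 and 1 in Col-0 and 6 and 1 in tanmei. Over all rows 28% were higher and 37.8% lower in Col-0 and 29.2% and 38.9% in tanmei, or 32.9% and 34.8% higher in Col-0 and tanmei relative to the median row. WRKY22 was the member that was lower. WRKY53 (labelled HB27), an early regulator of leaf senescence, had Ct values of 31.7, 26.5 and 24.99 in tanmei, against 30.7, 27.3 and 26.6 in Col-0. WRKY75 (labelled JAZ7), which acts in phosphate starvation and root hairs as well, had 29.0, 25.2 and 22.3 in tanmei, against 32.6, 26.9 and 25.01 in Col-0. WRKY6 (labelled WRKY19), a regulator of senescence and of the phosphate exporter PHO1, had 25.02, 20.7 and 19.4 in tanmei, against 27.7, 21.6 and 21.7 in Col-0. WRKY6 was thus among the highest rows of the family in culture.

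In the phosphate and root list of 5 genes 4 were higher and 0 lower at 5 d in each genotype, where 29.2% of all rows were higher in tanmei and 28% in Col-0. WRKY23 (labelled WRKY27), an auxin-inducible gene of the embryo and root, had Ct values of 23.3, 19.2 and 18.4 in tanmei, against 24.3, 19.3 and 19.1 in Col-0. The genotypes differed in WRKY23 by at most 1.03 cycles at each time. Relative to the block median the difference in explants was -0.04. WRKY42 (labelled HB24), which represses PHO1 with WRKY6, stayed late at 34.0, 32.2 and 34.6 in tanmei and 34.2, 32.6 and 33.03 in Col-0. The ABA and germination list of 7 genes shares WRKY18, WRKY40, WRKY60, WRKY6 and WRKY2 with the other lists. It had 4 higher and 1 lower in Col-0 and 2 higher and 1 lower in tanmei. The share that was higher in tanmei was near that of all rows. WRKY63 (labelled WRKY53), needed for ABA response in stomata and seedlings, had 28.5, 24.9 and 21.8 in tanmei, against 32.6, 27.0 and 25.9 in Col-0.

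The seed, embryo and development list of 9 genes had 3 higher and 4 lower in Col-0 at 5 d and 4 and 4 in tanmei. Over all rows 28% were higher and 37.8% lower in Col-0, and 29.2% and 38.9% in tanmei. The list was thus near the shares of all rows in Col-0. Over the 7 genes with a Ct in both tanmei groups, 3 were higher and 3 lower. WRKY2 (labelled HSFB4), which activates WOX8 in the zygote, was at 25.6, 24.9 and 24.0 in tanmei and 27.4, 25.7 and 25.1 in Col-0. Without centring, WRKY2 was thus earlier in both cultures than in explants. At 5 d it moved by less than the block median, which fell by 1.05 cycles in tanmei and 2.22 in Col-0. WRKY44 (labelled WRKY74), known as TTG2 from seed coat and trichomes, had 26.1, 28.0 and 29.7 in tanmei, against 27.0, 29.1 and 28.7 in Col-0, and was lower in culture. WRKY10 (labelled WRKY41), known as MINI3 from the endosperm, had no Ct in tanmei explants, then 33.2 and 30.9 at 5 and 10 d, against 35.2, 35.1 and 33.7 in Col-0. WRKY28 (labelled HB22) had 29.7, 25.6 and 22.8 in tanmei, against 28.0, 24.7 and 26.0 in Col-0. By label the same 5 lists gave 3, 2, 1, 0 and 1 higher rows and 7, 5, 3, 7 and 8 lower rows in Col-0 at 5 d, so no list kept its counts between the readings. The lower counts of the senescence, phosphate and ABA lists include the row labelled WRKY6, which had no Ct in any group, and were 4, 2 and 6 over the rows with a Ct in both groups. The TGA bZIP genes, partners of salicylate signalling with 7 members by label, had 3 higher and 3 lower in Col-0 and 2 and 2 in tanmei at 5 d. These stand beside the same shares of all rows.

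By protein structure, read 37 places on, group IIb stood at the upper end and group I at the lower end in both genotypes. Group IIb had 7 of 8 genes higher and 0 lower at 5 d in each genotype, against 29.2% and 38.9% of all rows in tanmei and 28% and 37.8% in Col-0, and its median change was 5.97 in tanmei and 5.49 in Col-0. WRKY9, WRKY31 and WRKY61 had no Ct in explants, so their changes rest on the value of 40. Over the 5 group IIb genes with a Ct in both groups, 4 were higher and 0 lower in each genotype, with medians of 4.13 in tanmei and 3.43 in Col-0. The 7 genes higher in the first count, with a missing Ct set to 40, were WRKY9, WRKY31, WRKY47, WRKY61, WRKY6, WRKY72 and WRKY36. Of these, the profiles of WRKY9, WRKY31, WRKY61, WRKY6 and WRKY36 were found 37 places on and those of WRKY47 and WRKY72 were not. WRKY36 (labelled WRKY20) had Ct values of 30.1, 24.9 and 24.1 in tanmei, against 30.2, 25.2 and 24.8 in Col-0. Group I had 2 of 13 genes higher and 8 lower in tanmei (median -1.37), and 1 higher and 8 lower in Col-0 (median -1.80). In the block 25.5% were higher and 55.6% lower in tanmei (median -1.09), and 25.3% and 53.7% in Col-0 (median -1.29). The lower share of group I was thus near that of its block. The group I gene that was higher in Col-0 was WRKY26 (labelled TIFY10B), which acts in heat tolerance, at 33.1, 27.8 and 27.1 in tanmei and 32.9, 28.1 and 27.5 in Col-0. Relative to the median row group I was nearly balanced, with 3 higher and 4 lower in tanmei and 1 and 3 in Col-0.

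Group III, which holds many salicylate-responsive members, had 7 of 13 higher and 2 lower in tanmei and 8 higher and 1 lower in Col-0. Its median in Col-0 was 1.23. Over all rows 29.2% were higher and 38.9% lower in tanmei, and 28% and 37.8% in Col-0. Over the 11 group III genes with a Ct in both groups, 5 were higher and 2 lower in tanmei. In Col-0 the counts over such genes, again 11, were 7 and 0. WRKY55 and WRKY66 had no Ct in tanmei explants. The profiles of WRKY30, WRKY41, WRKY55 and WRKY66 were not found 37 places on. Group IIc, the largest with 18 genes, had 11 higher and 5 lower in tanmei and 10 and 4 in Col-0. Group IIe had 5 of 8 higher and 1 lower in tanmei and 4 and 3 in Col-0. Group IId, whose members bind calmodulin, had 2 of 7 higher and 3 lower in tanmei and 1 and 1 in Col-0. By label, group IIb had 2 higher and 5 lower in tanmei and 3 and 5 in Col-0, the undetected row labelled WRKY6 among the lower, so the order of the groups is a statement about the displaced reading. WRKY19 and AT5G45270 were put in no group.

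**Figure D4:**
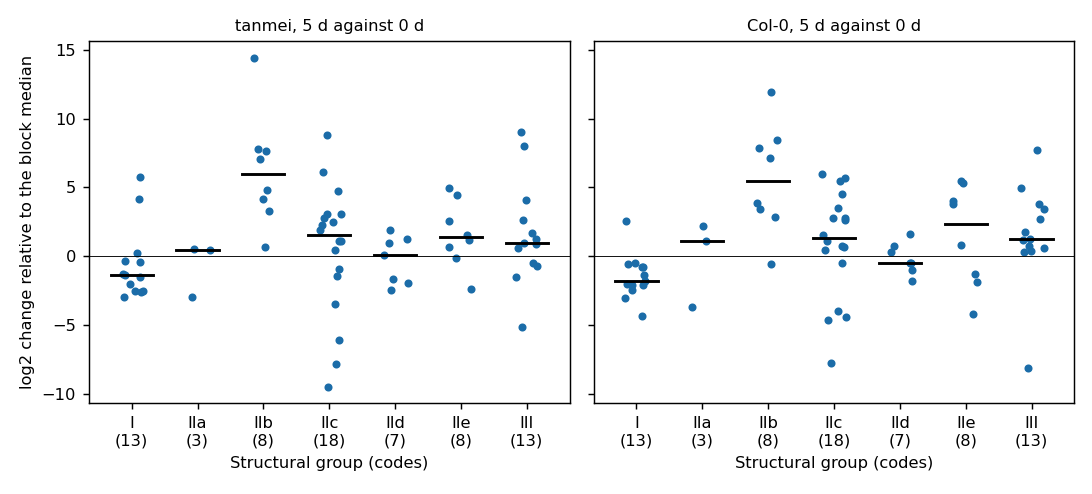
Change at 5 d against 0 d (log2, relative to the block median) of the WRKY codes read 37 places on, by structural group with the number of codes in brackets, in tanmei (left) and Col-0 (right), with 1 point per code and the group median as a bar. Group IIb has medians of 5.97 in tanmei and 5.49 in Col-0 (4.13 and 3.43 without the 3 genes that had no Ct in explants, drawn here from a Ct of 40), and group I has medians of -1.37 and -1.80.

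Across the rows the changes at 5 d in both genotypes went together. Over the 72 rows read 37 places on, the tanmei and Col-0 changes had a Pearson correlation of 0.82 and a Spearman correlation of 0.82. Over the 72 labelled rows the values were 0.81 and 0.77, over the block 0.71 and 0.66, and over all 1880 rows 0.66 and 0.67. The changes of WRKY9, WRKY31, WRKY61 and WRKY68, included here, rest on a Ct of 40 in explants of both genotypes. All rows come from the same 4 columns, and the values describe the rows only. Over the 37 rows that are WRKY by label only the correlations were 0.25 and 0.51. Relative to the median row, 38 of the 72 rows 37 places on were higher in both genotypes and 8 lower in both, against 440 and 316 of all 1880 rows.

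**Figure D5:**
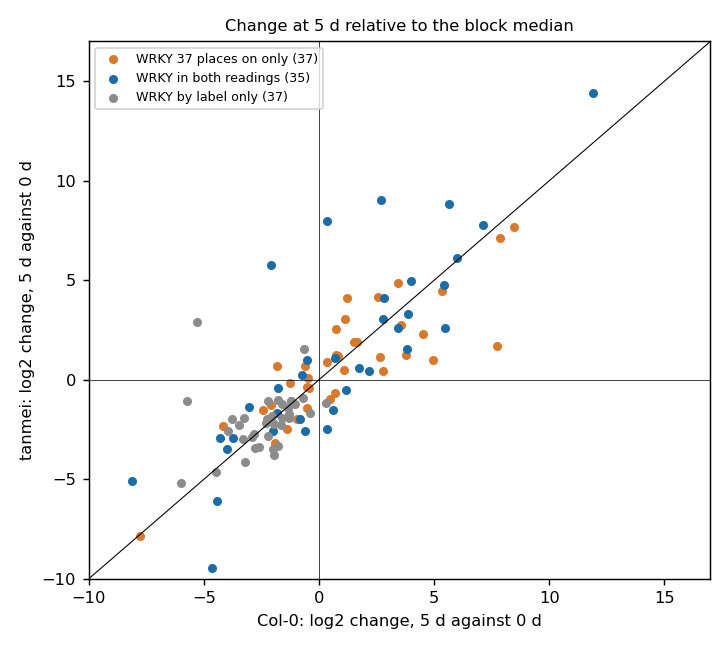
Change at 5 d against 0 d (log2, relative to the block median) in tanmei (vertical axis) against Col-0 (horizontal axis), 1 point per row, with the line of equal change; orange, WRKY 37 places on only (37 rows); blue, WRKY in both readings (35 rows); grey, WRKY by label only (37 rows). Of the 109 points 56 lie at least 2-fold off the line, and WRKY10, WRKY55 and WRKY66, which had no Ct in tanmei explants, lie above it.

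The changes themselves were then set against each other. At 5 d, by label, the change was at least 2-fold greater in tanmei for 20 rows and at least 2-fold smaller for 16, against 25.6% and 26.9% of all rows. The displaced reading gave 21 and 22. At 10 d they were 16 and 16 by label, against 31.4% and 26.6% of all rows, and 24 and 17 read 37 places on. WRKY62, WRKY12, WRKY30, WRKY35 and WRKY21 were the rows with the smallest change in tanmei relative to Col-0 at 5 d, and the values of WRKY62 and WRKY12 rest on a missing Ct in Col-0 explants and in tanmei at 5 d. WRKY30 (labelled PPD1), a group III gene of oxidative stress, had Ct values of 30.5, 28.5 and 27.6 in tanmei, against 33.6, 26.5 and 27.6 in Col-0, but its profile in the supplementary table was not found at this row. WRKY21 (labelled WRKY30), a group IId member, had 22.8, 24.2 and 23.7 in tanmei, against 24.0, 21.5 and 21.8 in Col-0. Without centring, WRKY21 was later in both tanmei cultures than in tanmei explants and earlier in both Col-0 cultures than in Col-0 explants. Relative to the block median its change at 5 d was -2.45 in tanmei and 0.34 in Col-0.

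Between the genotypes at 0 d, by label, 18 rows were higher in tanmei and 15 lower, against 23.6% and 22.6% of all rows. Read 37 places on, 26 were higher and 18 lower (26 and 13 relative to the median row). WRKY9, WRKY31, WRKY61 and WRKY68, with no Ct in explants of either genotype, are 4 of the 18 through the block median alone, as are 3 of the 15 labelled rows. With a Ct in both groups 25 were higher and 11 lower in the displaced reading, and 18 and 9 by label. The salicylate list had 9 of 13 higher and 1 lower in tanmei explants, and group III 9 of 13 higher and 3 lower. Over genes with a Ct in both explant groups, the list had 8 of 12 higher and 1 lower, and group III 8 of 10 higher and 1 lower. With a Ct in both groups the largest differences were those of WRKY54, WRKY49, WRKY70 and WRKY38 on the side of tanmei, at 4.77, 3.94, 3.81 and 3.76. WRKY49 (labelled JAZ12), whose profile in the supplementary table was not found at this row, had Ct values of 29.3, 27.8 and 29.5 in tanmei, against 34.3, 29.3 and 30.6 in Col-0. On the side of Col-0 they were those of WRKY71, WRKY28, WRKY48 and WRKY22, at -2.93, -2.77, -2.33 and -2.10. WRKY48 (labelled LBD5), a repressor of basal defence, had 27.6, 24.6 and 21.9 in tanmei, against 26.3, 22.6 and 22.8 in Col-0.

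At 5 d, 13 labelled rows were higher in tanmei and 12 lower than in Col-0 (all rows 23.1% and 21.2%), and read 37 places on 22 were higher and 9 lower. With a Ct in both groups the largest differences were again that of WRKY54, at 3.60, and those of WRKY62, WRKY40 and WRKY29, at 2.99, 2.98 and 2.88. Lower in tanmei were WRKY8 (labelled MEE8) at -3.07, WRKY21 at -2.61, WRKY56 at -2.29 and WRKY48 at -1.95. WRKY8, which responds to salt and virus infection, had Ct values of 29.2, 27.1 and 24.7 in tanmei, against 28.8, 23.9 and 26.1 in Col-0, so the genotypes changed order between 5 and 10 d.

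At 10 d the labelled family was even, with 18 rows higher in tanmei and 18 lower (all rows 29.5% and 21.8%). In the displaced reading 34 were higher and 11 lower. Centred on the median row, it gave 37 and 10, where all rows had 23.4% and 23.8%. Relative to the block median, the median difference was 0.85. Group III had 11 of 13 genes higher in tanmei and 0 lower, with a median of 2.41, and the senescence list 7 of 8 and 0. WRKY62 was 4.90, WRKY54 4.34, WRKY63 4.06, WRKY59 3.67 and WRKY38 3.50 above Col-0. WRKY12, which had no Ct in tanmei at 10 d, and WRKY56 at -3.90 were the lowest. Of these, WRKY62, WRKY54, WRKY63 and WRKY38 were at or beyond 2-fold in the same direction in explants as well.

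The other large families linked to stress were counted by label, each row relative to the median of its own block. Their labels lie in other stretches of the matrix and were not placed in the displaced order here. In Col-0 at 5 d, 40 of 146 AP2/EREBP rows were higher and 68 lower, and 39 of 106 NAC rows were higher and 45 lower, against 28% and 37.8% of all rows. Centred on the median row, AP2/EREBP gave 51 and 56 and NAC 48 and 25, against 32.9% and 27.3% of all rows. At 10 d between the genotypes, 53 AP2/EREBP rows were higher in tanmei and 26 lower, and 35 NAC rows were higher and 19 lower, against 29.5% and 21.8% of all rows. No difference between families was tested.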

How the data were processed

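The authors amplified cDNA of 3 replicates per group by SYBR Green qRT-PCR and deposited 1 mean Ct per gene and group. These deposited Ct values are not set against a reference gene. Deposited fold changes against UBQ, the authors' own comparisons, were not used. The precision of a Ct is not given, and PCR has no sequencing depth. No p-value was computed.

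An empty Ct was set to 40, so a row without a Ct in both groups takes the shift of the block median as its change. Each column was centred on the median of its block, and changes of at least 2-fold were counted. Profiles of the supplementary expression table were matched to rows for the order check only, within 1 cycle after a fitted constant per group was removed. Counting relative to the median row, without empty Ct, and matching at a known displacement, without the fitted constant, were tested on simulated data. Counting relative to the block median, the value set for an empty Ct and the fitting of the constant were not covered. Alternatives were 4 other centrings or treatments of late Ct, rows matched through the supplementary table, the median row as centre and the codes read 37 places on, of which the last 2 were chosen after the values were seen. Members, gene lists, structural groups (from general knowledge) and the naming rule were chosen with earlier results of these data known. Named rows are those with the largest changes at 5 d or between genotypes, the highest levels, no Ct or opposite changes. The rule was written for the labels, and its use on the displaced codes, the role list members and the genotype differences at 10 d were chosen after their values were seen. Python 3.11.15, numpy 2.4.6, pandas 2.3.3, scipy 1.17.1 and matplotlib 3.10.9 were used.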

Additional observations from a re-analysis of the deposited data

Results flagged for a closer look

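Relative to the block median, in 2 rows the change at 5 d went at least 2-fold in opposite directions in the 2 genotypes. The row labelled WRKY65, WRKY by label only, changed by 2.91 in tanmei and -5.31 in Col-0 (log2), a difference of 8.22. It had Ct values of 35.8, 31.9 and 36.02 at 0, 5 and 10 d in tanmei, against 36.9, none and 36.1 in Col-0, so the Col-0 change rests on a missing Ct set to 40. WRKY10 (labelled WRKY41) changed by 5.76 in tanmei and -2.11 in Col-0, a difference of 7.87, and the tanmei change rests on a missing Ct in explants. In Col-0 the Ct of WRKY10 was 0.11 cycles earlier at 5 d, and its change relative to the median row was -0.81, so it passed 2-fold only through the block median. Centred on the median row, WRKY21 (labelled WRKY30) went in opposite directions instead, at -1.20 in tanmei and 1.64 in Col-0. These differences were not tested.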

How the results depend on the processing

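No paired analysis was possible because each group is 1 deposited mean, and no replicate could be left out. Values are given as higher and lower rows of the labelled family. With all rows as centre, Col-0 gave 28 and 19 at 5 d and 24 and 13 at 10 d, and tanmei 17 lower at 5 d and 13 lower at 10 d. The family's median levels became 3.15 and 3.40 in tanmei at 5 and 10 d and 2.94 and 3.15 in Col-0. These counts and levels hold the shift of the block, and no shares of all rows are given for this centre. With the median row as centre, 22 and 18 rows were lower in Col-0 at 5 and 10 d, and 23 and 23 in tanmei. With only rows that had a Ct in both groups, 9 were lower in tanmei explants than in Col-0 explants, and the change was greater in tanmei for 12 at 5 d and 10 at 10 d. Among the 38 rows matched through the supplementary table, chosen by the study as changed, Col-0 gave 27 and 1 at 5 d, 25 and 2 at 10 d and 7 higher at 10 d against 5 d. There tanmei gave 5 lower at 5 d, 4 at 10 d and 3 at 10 d against 5 d, and against Col-0 5 lower at 5 d and 4 at 10 d. Read 37 places on, Col-0 gave 33 and 19 at 5 d, 30 and 23 at 10 d and 12 lower at 10 d against 5 d. There tanmei gave 34 and 21 at 5 d, 36 and 22 at 10 d and 23 higher at 10 d against 5 d, and against Col-0 22 higher at 5 d and 34 and 11 at 10 d. The causes were not tested. A Ct limit of 35 moved none of these counts by more than 1.5 times. UBQ as reference and structural groups from protein sequences were not run. A late Ct limits precision by an unknown amount.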
